A study of Mus musculus with 4 samples.

Results

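The genes described here are 10 genes of the Th1 response and of the response to IL-12 and IL-18, namely Ifng, Tbx21, Eomes, Il12rb1, Il12rb2, Il18r1, Il18rap, Stat4, Hlx and Runx3. They were taken by name, and all 10 were found among the 23990 gene symbols of the expression tables. RNA was sequenced from effector CD4 cells (CD44+CD4), sorted at disease onset from wild type C57BL/6 mice with experimental autoimmune encephalomyelitis (EAE), a mouse model of multiple sclerosis brought on by immunization with a myelin peptide (MOG), complete Freund's adjuvant and pertussis toxin. The spinal cord (CNS) gave 2 libraries and the draining lymph nodes (dLN), which were pooled, gave 2 more, all from immunized mice, and no group of naïve mice was compared. According to the study's methods the sorted cells were stimulated with PMA and ionomycin, whereas the sample labels call them freshly sorted and name no stimulation. The sources used here do not give the age or sex of the mice, nor how many mice made up a library.

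Th1 cells are the CD4 cells that secrete interferon gamma (IFNγ), the cytokine encoded by Ifng. IL-12 binds a receptor made of the chains Il12rb1 and Il12rb2 and signals through the transcription factor STAT4, and IL-18 binds a receptor made of Il18r1 and Il18rap and signals through MyD88. Both cytokines together induce IFNγ in T cells that already carry their receptors. T-bet, encoded by Tbx21, is the transcription factor that defines the Th1 lineage, and Eomes, Runx3 and Hlx are transcription factors that act with it on Ifng.

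The DNA before a start of 3 of these genes is shown. They encode IFNγ, the signalling chain of the IL-12 receptor and the binding chain of the IL-18 receptor. Sequences are from RefSeq (GRCm38.p6), 5′ to 3′ on the strand of the gene. Capitals mark letters that match a STAT motif (TTCNNNGAA) or, in Il12rb2, also the T-box core GTGTGA, which is read there on the other strand as TCACAC.

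Ifng, chr10:118440796-118441045, plus strand: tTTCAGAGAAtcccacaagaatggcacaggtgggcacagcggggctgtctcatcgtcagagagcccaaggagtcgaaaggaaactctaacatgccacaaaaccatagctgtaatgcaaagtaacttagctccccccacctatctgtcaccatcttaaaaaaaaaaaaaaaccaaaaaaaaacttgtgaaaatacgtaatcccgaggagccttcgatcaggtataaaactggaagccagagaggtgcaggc
Il12rb2, chr6:67376189-67376438, minus strand: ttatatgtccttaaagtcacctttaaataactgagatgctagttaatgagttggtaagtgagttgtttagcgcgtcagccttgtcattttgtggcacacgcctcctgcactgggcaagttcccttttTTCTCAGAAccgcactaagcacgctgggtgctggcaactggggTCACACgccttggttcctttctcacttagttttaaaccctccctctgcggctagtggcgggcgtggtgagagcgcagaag
Il18r1, chr1:40465811-40465969, plus strand: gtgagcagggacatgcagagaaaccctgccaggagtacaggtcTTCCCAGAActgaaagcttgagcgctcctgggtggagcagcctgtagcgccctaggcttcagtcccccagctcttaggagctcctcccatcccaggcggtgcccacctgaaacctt

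The stretches of Ifng and Il12rb2 are the 250 bases before the start in the RefSeq table, which for both genes lies outside the start in the expression tables given below. That of Il18r1 is the part of this window, before the start of its main transcript, that no exon of the annotation covers. It lies after the starts of the shorter Il18r1 transcripts, and so within the span of the gene given below. Of the 10 genes, 9 had an entry, with 13 such windows of 250 bases in all. The STAT motif, which reads the same on both strands, was found in 3 of the 13 windows and in 7.02% of the 32851 windows of all genes. These 3 were windows of Ifng, Il12rb2 and Il18r1, the genes shown above, so the printed stretches do not stand for the other members. The T-box core was found in 1 of the 13, that of Il12rb2, and in 12.3% of all windows. A RUNX core (TGTGGT, either strand) was found in 1, a window of Runx3 itself, and in 14.0% of all, and an AP-1 motif (TGANTCA) in 0 of the 13 and 6.75% of all. These are matches of letters and no measurement of binding.

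The sorted cells carried the markers of their label. The 7 CD4 T-cell markers in the tables were above 1 FPKM (fragments per kilobase, a level corrected for transcript length and for library depth) in all 4 libraries, with a summed level of 2732 and 2746 FPKM in CNS and of 1313 and 1226 FPKM in dLN. Of these, 4 were called higher in CNS, namely Cd4 (log2 ratio of CNS over dLN 2.79), Cd3g (2.83), Cd3e (1.88) and Cd3d (1.81). Cd44, which was used for the sort, was called lower (log2 ratio -0.56, limma adjusted p = 0.00337), as was Cd5 (-0.29, limma adjusted p = 0.0353), and Cd2 was not called (-0.01). Myeloid markers summed to 20.9 and 342 FPKM in CNS replicates 1 and 2 and to 4.32 and 3.84 FPKM in dLN, so CNS replicate 2 stood apart in this measure. Transcripts of the sex chromosomes separated the tissues too, with Ddx3y at a mean of 11.9 FPKM in CNS and listed at 0 in dLN, and Xist at a mean of 24.5 FPKM in dLN. The libraries of the tissues may therefore come from mice that differ in sex, and tissue and sex cannot be told apart here. Depth, estimated from the steps of low values, was 18.55 M to 21.95 M fragments per library.

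Effector CD4 cells of the CNS held more RNA of the inducible receptor chains for IL-12 and IL-18, whereas Il12rb1 and Stat4 were read at similar levels in both tissues. Ordered by the log2 ratio of CNS over dLN, the members that rose in the CNS were Il12rb2 (3.98), Il18r1 (3.68), Il18rap (2.96), Runx3 (2.48), Eomes (1.58), Ifng (1.43) and Tbx21 (0.65). Hlx (0.40), Il12rb1 (0.18) and Stat4 (0.16) did not pass the test. No member fell, against 37.2% of all genes. The tissues did not overlap for 8 of the members, against 89.4% of all genes. Ratios are on the scale of log2(FPKM + 1), which understates the change of low genes, and were tested with limma over the 10634 genes that averaged 1 FPKM or more in CNS or in dLN, with Benjamini-Hochberg adjustment at 0.05.

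**Figure D1:**
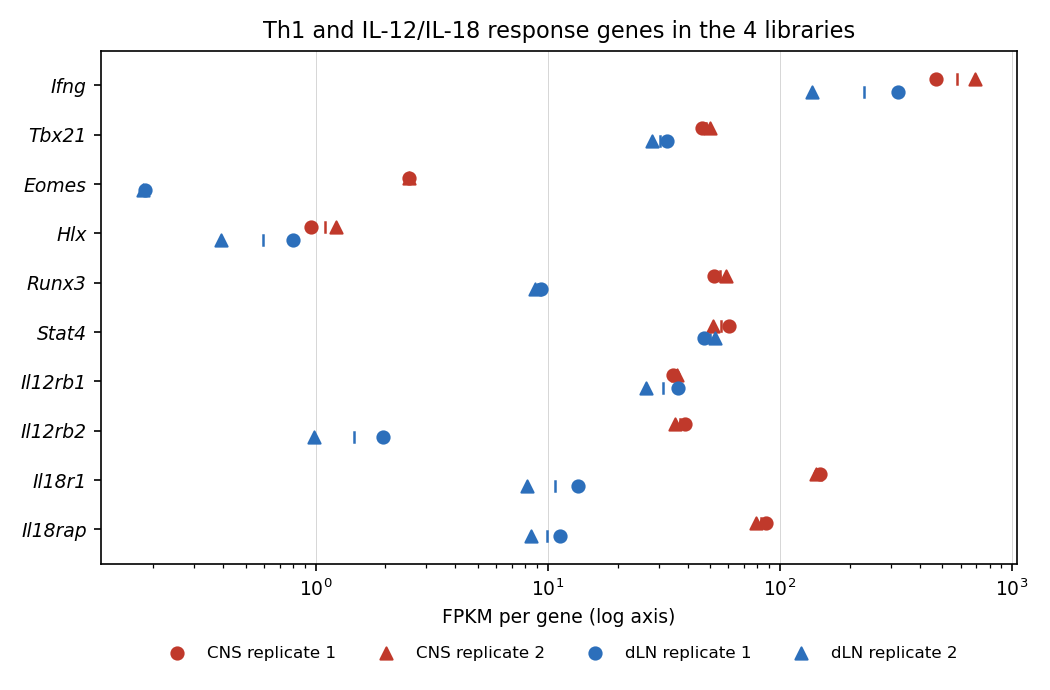
FPKM of each gene (log axis) in CNS libraries (red) and dLN libraries (blue), with circles for replicate 1, triangles for replicate 2 and a short line at the mean of each tissue. The tissues do not overlap for Il12rb2, Il18r1, Il18rap and Runx3, at 35.3 to 149 FPKM in CNS and 0.983 to 13.5 FPKM in dLN, and they overlap for Il12rb1 and Stat4.

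Passing the test was common in these libraries. It was passed by 74.9% of all genes tested and by 7 of the 10 members, which is near that background and no property of the members. The direction was more uneven, with 7 of 10 called higher in CNS against 37.8% of all genes. At least 2-fold higher were 6 of 10, against 21.0% of all genes. A log2 ratio of at least 2 was reached by 4 of 10, against 7.31% of all genes. The median log2 ratio was 1.50 over the 10 members and 0.05 over all genes tested. Eomes and Hlx passed the minimum of 1 FPKM through their CNS libraries alone, so neither could be called lower. Of the 8 genes that reached it in both tissues, 6 were called, all higher in CNS, and the median log2 ratio of these 8 was 1.95. The shares of all genes include genes that passed through a single tissue. The members were chosen with earlier results of these data known, so these counts only describe them. In bulk RNA, fewer cells expressing a gene and less RNA per cell cannot be told apart, and neither can tissue and the other differences between the 2 pairs of libraries.

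**Figure D2:**
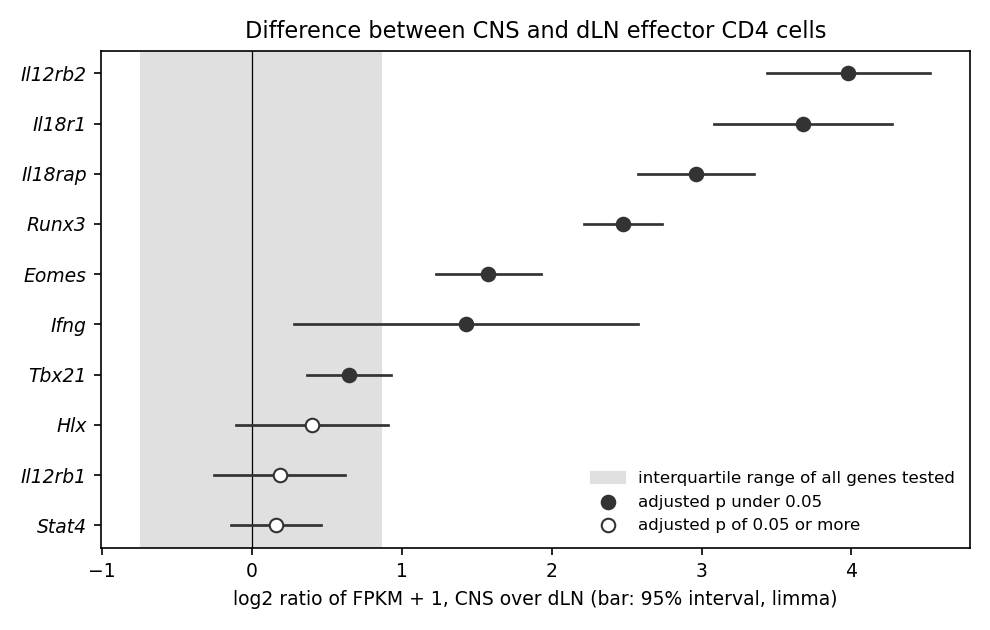
Log2 ratio of FPKM + 1, CNS over dLN, for each gene, with the 95% interval from limma as a bar, filled circles for an adjusted p under 0.05, and the interquartile range of all genes tested in grey. Il12rb2, Il18r1, Il18rap and Runx3 lie at 2.48 to 3.98, and the intervals of Stat4, Il12rb1 and Hlx include 0.

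Il12rb2 (Entrez gene 16162, mm10 chromosome 6, 67292018 to 67376137, minus strand) encodes the signalling chain of the IL-12 receptor, which recruits JAK2 and STAT4 and is present on Th1 cells but scarce on naïve cells. It was read at 39.2 and 35.3 FPKM in CNS, compared with 1.95 and 0.983 FPKM in dLN. The dLN values correspond to about 99.9 and 59.7 fragments, so the low level was still counted. The mean of 37.3 ± 2.70 FPKM (SD, n = 2) in CNS was 25.4-fold that of 1.47 ± 0.686 FPKM (SD, n = 2) in dLN. The log2 ratio of 3.98 (SE 0.21, limma adjusted p = 0.000135) ranked 68 among the 10634 genes, and 0.630% of them had a larger one.

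Il12rb1 (Entrez gene 16161, chromosome 8, 70808449 to 70821423) encodes the chain that IL-12 shares with IL-23. It was at 34.6 and 36.2 FPKM in CNS and at 36.5 and 26.4 FPKM in dLN, so both CNS libraries lay between the dLN libraries. The log2 ratio of 0.18 had a 95% interval of -0.25 to 0.62 (limma adjusted p = 0.358). The direction turned when all libraries were scaled to the same FPKM sum (-0.0083), as did that of Stat4 (-0.036). Il12rb1 reached an adjusted p of 0.0467 without dLN replicate 1 (log2 ratio 0.41, limma) and was -0.04 without dLN replicate 2.

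Both chains of the IL-12 receptor can be set against each other within a library, since FPKM is per length. Il12rb2 was at 1.13 and 0.976 times the FPKM of Il12rb1 in the CNS libraries, and at 0.0535 and 0.0373 times in the dLN libraries. The chains were thus near parity in CNS, while in dLN Il12rb1 exceeded Il12rb2 by 18.7-fold and 26.8-fold. On the log2 scale the tissues differed in this ratio by 4.56, against an SD of 0.15 in CNS and 0.37 in dLN. With 2 libraries against 2, an exact permutation test cannot go below p = 0.33 (two-sided), so such ratios are given as values.

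Il18r1 (Entrez gene 16182, chromosome 1, 40465552 to 40500854, plus strand) encodes the chain that binds IL-18. It was at 149 and 143 FPKM in CNS and at 13.5 and 8.13 FPKM in dLN. The tissues were far apart and the libraries within each close by comparison. The log2 ratio was 3.68 (SE 0.23, limma adjusted p = 0.000196), and the ratio of mean FPKM was 13.5. In CNS it was the member with the highest level after Ifng, at rank 484 and 529 of the genes tested, compared with rank 4588 and 5776 in dLN.

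The FPKM of Il18r1 came from 3 RefSeq transcripts. The longest, NM_008365 with 4158 bases, held 79.5% and 79.4% of the gene's FPKM in CNS and 80.1% and 79.6% in dLN. NM_001161843 held 16.6% and 16.3% in CNS and 16.0% and 14.3% in dLN. NM_001161842 held the remaining 3.94% to 6.09%. The shares of the transcripts were therefore alike in all 4 libraries although the level of the gene was not. How the authors' program divided reads between transcripts is not given in the sources used here.

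Il18rap (Entrez gene 16174, chromosome 1, 40515362 to 40551705, plus strand) encodes the accessory chain that lets the IL-18 receptor signal. It was at 87.3 and 79.2 FPKM in CNS and at 11.3 and 8.50 FPKM in dLN, again without overlap. The log2 ratio was 2.96 (SE 0.15, limma adjusted p = 0.000123), an 8.43-fold ratio of mean FPKM. Within a library, Il18rap was at 0.586 and 0.555 times Il18r1 in CNS and at 0.837 and 1.05 times in dLN. The binding chain thus exceeded the accessory chain in both CNS libraries, and the chains were closer to parity in dLN.

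**Figure D3:**
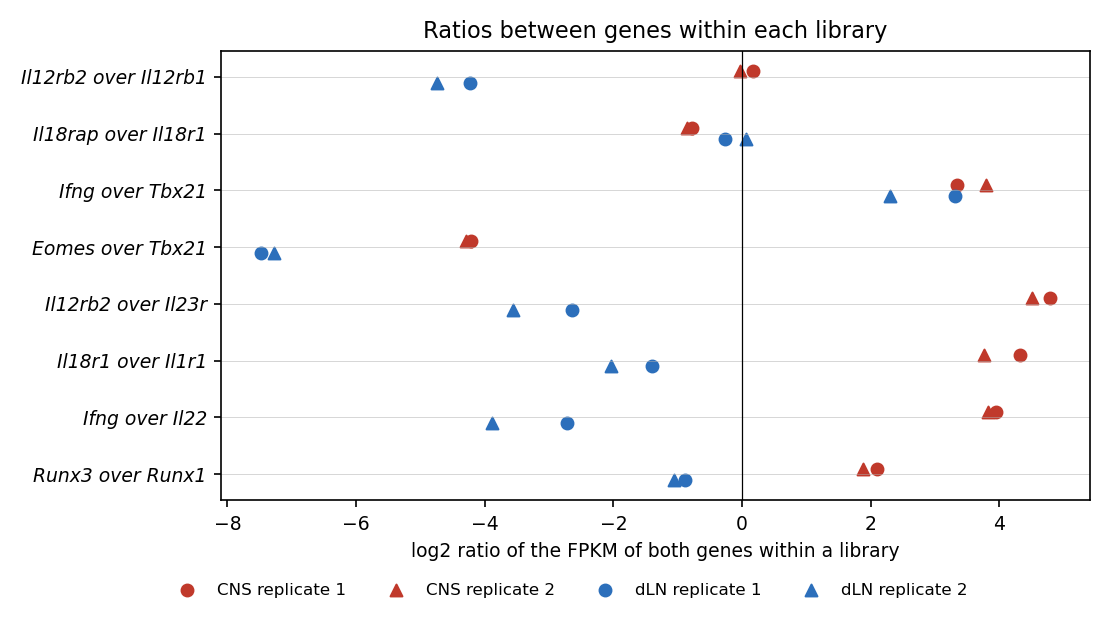
Log2 ratio of the FPKM of 2 genes within each library, for CNS (red) and dLN (blue), with circles for replicate 1 and triangles for replicate 2. Il12rb2 over Il12rb1 lies at 0.18 and -0.03 in CNS and at -4.22 and -4.74 in dLN, and the ratios of Il12rb2 over Il23r, Il18r1 over Il1r1, Ifng over Il22 and Runx3 over Runx1 are above 0 in CNS and below 0 in dLN.

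Stat4 (Entrez gene 20849, chromosome 1, 52008244 to 52107184) encodes the transcription factor that IL-12 activates. It was at 60.1 and 51.6 FPKM in CNS and at 47.0 and 52.7 FPKM in dLN, so the tissues overlapped. The log2 ratio was 0.16, with a 95% interval of -0.14 to 0.46 (limma adjusted p = 0.262). The upper bound lay under the log2 ratios of Il12rb2 and of both IL-18 receptor chains.

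Ifng (Entrez gene 15978, chromosome 10, 118441047 to 118445892, plus strand) had the highest level of the members in every library. It was at 469 and 693 FPKM in CNS and at 324 and 138 FPKM in dLN, which placed it at rank 167, 133, 205 and 553 of the genes tested. The tissues did not overlap, but the dLN libraries differed from each other by more than the lower CNS library differed from the higher dLN library. The log2 ratio of 1.43 (SE 0.44) had a 95% interval of 0.28 to 2.58 (limma adjusted p = 0.0343). It passed the test without dLN replicate 1 (log2 ratio 2.04, limma adjusted p = 0.00653) but not without CNS replicate 1 (1.71, adjusted p = 0.123), CNS replicate 2 (1.15, adjusted p = 0.183) or dLN replicate 2 (0.81, adjusted p = 0.0561). The adjusted p was also above the threshold, at 0.0986, when genes under 1 FPKM were kept in the fit.

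PMA and ionomycin induce Ifng, so other genes known to respond to them were counted beside it. Of 15 such genes, 3 were higher in CNS, against 37.8% of all genes, and 10 lower, against 37.2%. Their median log2 ratio was -2.57. Il4 passed the minimum of 1 FPKM through dLN alone, so it could not be called higher. Il2 was at 18.2 and 38.8 FPKM in CNS and at 5363 and 6176 FPKM in dLN. Il3 (log2 ratio -5.46) and Il22 (-5.71) fell as well, and Il4 was listed at 0 and 0.225 FPKM in CNS against 266 and 273 FPKM in dLN. The genes of the list that rose were Fos (log2 ratio 3.29), Junb (2.38) and Cd69 (1.32). The part of stimulation in the members' differences was not tested.

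Tbx21 (Entrez gene 57765, chromosome 11, 97098007 to 97115331, minus strand) encodes T-bet. It was at 46.4 and 49.8 FPKM in CNS and at 32.7 and 28.1 FPKM in dLN. The gap between the tissues was larger than that within either, and the log2 ratio of 0.65 passed the test (SE 0.11, limma adjusted p = 0.00429). It was a modest difference, a 1.58-fold ratio of mean FPKM, and lay within the interquartile range of all genes tested. Per unit of Tbx21, Ifng was at 10.1 and 13.9 in CNS and at 9.89 and 4.90 in dLN, so CNS replicate 1 and dLN replicate 1 hardly differed in this ratio.

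Eomes (Entrez gene 13813, chromosome 9, 118478189 to 118486132) encodes the other T-box factor of T cells and NK cells, related to T-bet. It was low in both tissues, at 2.51 and 2.53 FPKM in CNS and at 0.183 and 0.180 FPKM in dLN. These levels correspond to about 186 and 192 fragments in CNS and to 12.0 and 14.0 in dLN. The log2 ratio of 1.58 (SE 0.13, limma adjusted p = 0.000453) understates a 13.9-fold ratio of mean FPKM, because both means are near the pseudocount. Tbx21 exceeded Eomes in all 4 libraries, by 18.5-fold and 19.6-fold in CNS and by 179-fold and 156-fold in dLN. Of the RefSeq transcripts, NM_010136 held 89.2% and 79.6% of the FPKM of Eomes in CNS. NM_001164789 held the other 10.8% and 20.4% in CNS and at most 0.021% in dLN, where 12.0 and 14.0 fragments could show little of it.

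Runx3 (Entrez gene 12399, chromosome 4, 135120645 to 135177990) encodes a RUNX factor that acts with T-bet on Ifng and restrains Il4. It was at 51.9 and 58.7 FPKM in CNS and at 9.38 and 8.83 FPKM in dLN. The libraries of each tissue lay close together and the tissues far apart, with a log2 ratio of 2.48 (SE 0.10, limma adjusted p = 9.15e-05) and a 6.07-fold ratio of mean FPKM. Runx1, its paralog, was at 12.1 and 16.0 FPKM in CNS and at 17.4 and 18.3 FPKM in dLN (log2 ratio -0.34, limma adjusted p = 0.0935). Runx3 was at 4.29 and 3.67 times Runx1 in CNS and at 0.540 and 0.483 times in dLN, so the order of these paralogs differed between the tissues. Runx2 (log2 ratio 1.61) and Cbfb (0.64), the partner chain of all RUNX factors, were also called higher in CNS.

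Hlx (Entrez gene 15284, chromosome 1, 184727145 to 184732493, minus strand) encodes a homeobox factor that T-bet induces. It was at 0.958 and 1.23 FPKM in CNS and at 0.798 and 0.392 FPKM in dLN, from about 16.9 to 51.9 fragments. Both CNS libraries were above both dLN libraries, as in 45.7% of all genes tested. The log2 ratio of 0.40 had a 95% interval of -0.11 to 0.91 and did not pass (limma adjusted p = 0.119).

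The order of the members' levels differed between the tissues. In CNS the mean FPKM fell from Ifng over Il18r1 and Il18rap to Stat4 (55.8 ± 6.00, SD, n = 2) and Runx3 (55.3 ± 4.81, SD, n = 2), which did not differ beyond their spread. Tbx21 followed, then Il12rb2 and Il12rb1, which were again within their spread, and Eomes and Hlx were last. In dLN, Stat4 came after Ifng, followed by Il12rb1 (31.4 ± 7.16, SD, n = 2) and Tbx21 (30.4 ± 3.30, SD, n = 2), which overlapped. Il18r1, Il18rap and Runx3 then lay together between 8.13 and 13.5 FPKM, and Il12rb2, Hlx and Eomes were lowest. Runx3 was thus level with Stat4 in CNS and well under it in dLN.

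Cells other than CD4 cells can express several of these genes. Of 9 markers of NK cells and ILC1, 4 reached 1 FPKM in each CNS library and 0 in either dLN library, and their summed level was 9.19 and 99.0 FPKM in CNS and 0.533 and 0.531 FPKM in dLN. Most of the sum in CNS replicate 2 was Tyrobp (55.9 FPKM) and Fcer1g (36.2 FPKM), which myeloid cells share. Of the 4 markers tested, 3 were called higher in CNS, against 37.8% of all genes, and all 4 passed the minimum of 1 FPKM through CNS alone. Klrb1c was at 2.53 and 3.22 FPKM in CNS and Klre1 at 1.44 and 1.67 FPKM. Ncr1 was at 0 and 0.581 FPKM in CNS, and Klra1 was listed at 0 in every library. CNS replicate 2 was the library with the most myeloid and NK marker RNA. Without it, the log2 ratio was 4.05 for Il12rb2, 3.71 for Il18r1, 3.03 for Il18rap and 2.39 for Runx3. It was 1.57 for Eomes, 0.60 for Tbx21 and 1.15 for Ifng, which was at 1.71 without CNS replicate 1. CNS replicate 1 also held more of these marker transcripts than either dLN library, and the part of such cells in the members' differences was not tested.

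Signalling genes downstream of both receptors moved in both directions. Of 23 genes listed, 22 were tested, and 12 were higher, 5 lower and 5 not called, with a median log2 ratio of 0.52. Among all genes tested, 37.8% were called higher and 37.2% lower. Map2k6, a kinase that activates p38 MAP kinase, was at 5.42 and 4.68 FPKM in CNS and at 0.0862 and 0.0964 FPKM in dLN (log2 ratio 2.47, limma adjusted p = 0.000148). It passed the minimum of 1 FPKM through CNS alone, so it could not be called lower. Map2k3, which activates the same kinase, went the other way, from 416 and 474 FPKM in dLN to 45.7 and 58.1 FPKM in CNS (log2 ratio -3.08, limma adjusted p = 0.000106). Jak2, the kinase bound to the Il12rb2 chain, also fell, at 29.4 and 31.6 FPKM in CNS against 191 and 214 FPKM in dLN (log2 ratio -2.69, limma adjusted p = 8.95e-05). Tyk2, another kinase of this list, rose (16.7 and 18.3 FPKM in CNS against 9.17 and 7.27 FPKM in dLN, log2 ratio 1.01, limma adjusted p = 0.00184). The signalling chain of the IL-12 receptor was thus higher in CNS while Jak2 was lower and Tyk2 higher.

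The ligands themselves were hardly read in the sorted cells. Il12a, Il12b, Il18, Il23a and Il27 each had a mean under 1 FPKM in both tissues and were not tested. The other 4 of these 9 genes were tested, of which 1 was higher and 2 lower in CNS, against 37.8% and 37.2% of all genes. Il27ra, which pairs with the shared gp130 chain in the IL-27 receptor, rose (49.1 and 49.8 FPKM against 18.5 and 16.8 FPKM, log2 ratio 1.44, limma adjusted p = 0.000194). Il6st, which encodes gp130, fell (3.93 and 6.66 FPKM against 44.5 and 57.1 FPKM, log2 ratio -3.06, limma adjusted p = 0.000392). Il23r fell as well (log2 ratio -2.38, limma adjusted p = 9.33e-05).

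Genes on the receiving side of IFNγ were mostly higher in CNS. Of 10 genes, 8 were higher, against 37.8% of all genes, 1 was lower, against 37.2%, and 1 was not called. Their median log2 ratio was 1.56. Cxcl9 and Ciita, both among those called higher, passed the minimum of 1 FPKM through CNS alone, so neither could be called lower. Ifngr1, the chain that binds IFNγ, was at 497 and 471 FPKM in CNS and at 14.7 and 11.0 FPKM in dLN, a 37.6-fold ratio of mean FPKM (log2 ratio 5.14, limma adjusted p = 8.12e-05). Ifngr2, the other chain, was at 1.32 and 3.14 FPKM in CNS and at 3.41 and 2.83 FPKM in dLN and did not pass (log2 ratio -0.41, limma adjusted p = 0.264). The IFNγ-induced chemokine gene Cxcl10 was at 15.6 and 51.7 FPKM in CNS and at 2.60 and 2.57 FPKM in dLN (log2 ratio 3.04). Cxcl9 was at 1.46 and 11.7 FPKM in CNS and at 0.139 and 0.123 FPKM in dLN (log2 ratio 2.31), and for both genes CNS replicate 2, the library with more myeloid RNA, was the higher. Stat2 had a log2 ratio of 1.85. The gene called lower was Irf8, and leaving out a library moved that count between 0 and 2.

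Genes that T-bet targets or that Th1 effector cells express did not move as a block. Of 16 genes, 8 were higher, against 37.8% of all genes, 3 were lower, against 37.2%, and 5 were not called. Their median log2 ratio was 0.90. Without CNS replicate 2 the counts were 5 higher and 5 lower. Ccl5, a chemokine gene of effector T cells, was at 1269 and 1019 FPKM in CNS and at 5.98 and 4.31 FPKM in dLN (log2 ratio 7.55). Nkg7, a granule membrane protein gene, was at 593 and 578 FPKM in CNS and at 27.9 and 11.9 FPKM in dLN (log2 ratio 4.93). Selplg, which encodes the selectin ligand PSGL-1, had a log2 ratio of 3.39. Tnf was the called gene with the largest fall, at 95.4 and 129 FPKM in CNS against 589 and 745 FPKM in dLN (log2 ratio -2.57).

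**Figure D4:**
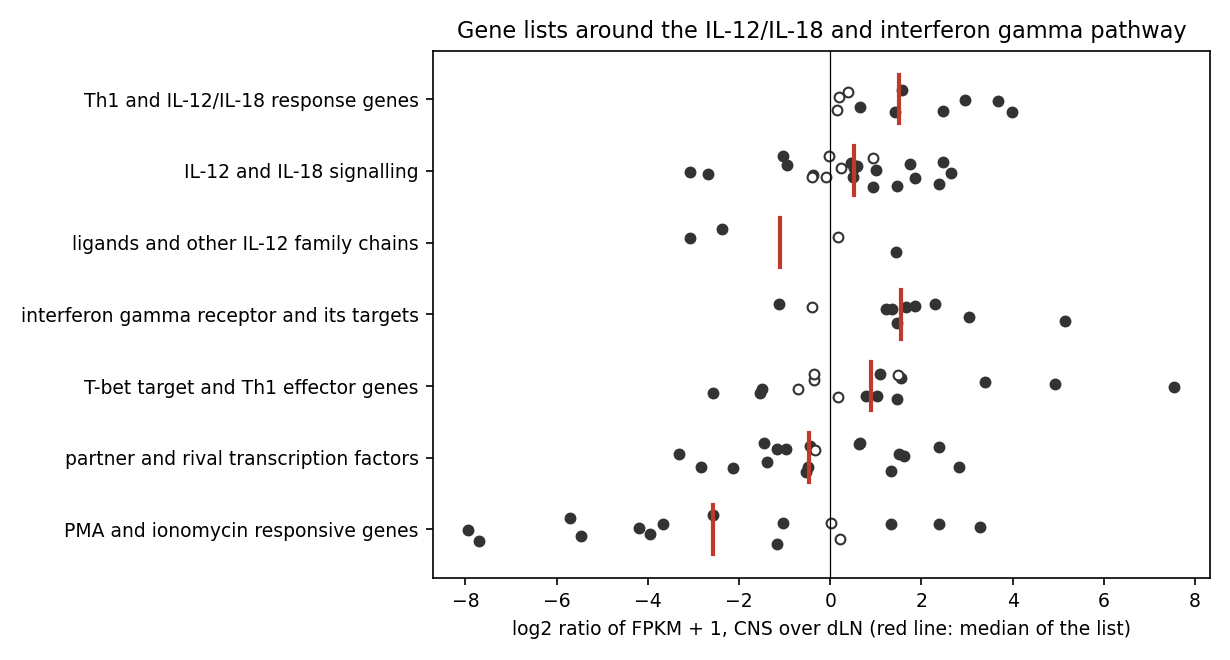
Log2 ratio of FPKM + 1, CNS over dLN, of each tested gene in the 10 members and in 6 surrounding gene lists, with filled circles for an adjusted p under 0.05 (limma), open circles for the others and a red line at the median of the list. The members lie at 0.16 to 3.98, whereas the signalling genes lie on both sides of 0 with a median of 0.52 and the genes that respond to PMA and ionomycin have a median of -2.57.

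Among 19 partner and rival transcription factors, 18 were tested, of which 7 were higher, 10 lower and 1 not called (median log2 ratio -0.47). The shares of all genes tested were 37.8% called higher and 37.2% lower. Bhlhe40, a factor that promotes IFNγ and GM-CSF, was at 361 and 440 FPKM in CNS and at 62.2 and 49.5 FPKM in dLN (log2 ratio 2.82). Id2, an inhibitor of E proteins, had a log2 ratio of 2.39. Irf4, a factor induced by the T-cell receptor, fell from 348 and 362 FPKM in dLN to 30.8 and 39.7 FPKM in CNS (log2 ratio -3.31), and Stat5a, which IL-2 activates, had a log2 ratio of -2.84. Gata3 (log2 ratio -0.97), Bcl6 (-0.54) and Foxp3 (-1.39), which define Th2, follicular helper and regulatory cells, were called lower, while Tbx21 was called higher.

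Several members lie in the genome beside genes of the opposite direction. Il12rb2 and Il23r, which encode the specific chains of the IL-12 and IL-23 receptors, are 46.8 kb apart on chromosome 6. Il23r was at 1.41 and 1.55 FPKM in CNS and at 12.3 and 11.6 FPKM in dLN, so that Il12rb2 was at 27.7 and 22.9 times Il23r in CNS, and Il23r at 6.27 and 11.8 times Il12rb2 in dLN. Both chains pair with Il12rb1, which did not pass the test. Serbp1, an RNA-binding protein gene 2.72 kb from Il12rb2 on its other side, was at a mean of 81.2 FPKM in CNS and 163 FPKM in dLN.

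Il18r1 and Il18rap are 14.5 kb apart in a cluster of IL-1 receptor family genes. Il1rl1, the IL-33 receptor gene that lies 138 bases before Il18r1, was at 11.7 and 11.5 FPKM in CNS and at 16.6 and 13.2 FPKM in dLN (log2 ratio -0.32, limma adjusted p = 0.0733). Il1r1, the IL-1 receptor gene 149 kb away, fell from 35.4 and 33.3 FPKM in dLN to 7.43 and 10.5 FPKM in CNS (log2 ratio -1.84, limma adjusted p = 0.000542). Il1rl2 rose at a low level (log2 ratio 1.16). Il18r1 was therefore at 20.1 and 13.6 times Il1r1 in CNS, and Il1r1 at 2.63 and 4.10 times Il18r1 in dLN.

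Upstream of Ifng lie Il22, at 231 kb, and its near-identical copy Iltifb, at 146 kb, between which reads could be split. Il22, a cytokine gene of Th17 and Th22 cells, was at 30.5 and 48.9 FPKM in CNS and at 2124 and 2026 FPKM in dLN (log2 ratio -5.71), and Iltifb had a log2 ratio of -5.28. Ifng was at 15.4 and 14.2 times Il22 in CNS, while Il22 was at 6.56 and 14.7 times Ifng in dLN. These ratios, and the neighbours Il23r, Serbp1, Il1rl1, Il1rl2 and Il1r1, were singled out after their values were seen. The transcript D030028A08Rik, 133 kb from Tbx21, was at 0.430 and 0.298 FPKM in CNS and at 13.05 and 16.6 FPKM in dLN (log2 ratio -3.53). Over all members, 47 genes within 250 kb were tested, of which 18 were higher, 14 lower and 15 not called. Among all genes tested, 37.8% were called higher and 37.2% lower. The median log2 ratio of the 47 was 0.01, close to that of all genes.

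**Figure D5:**
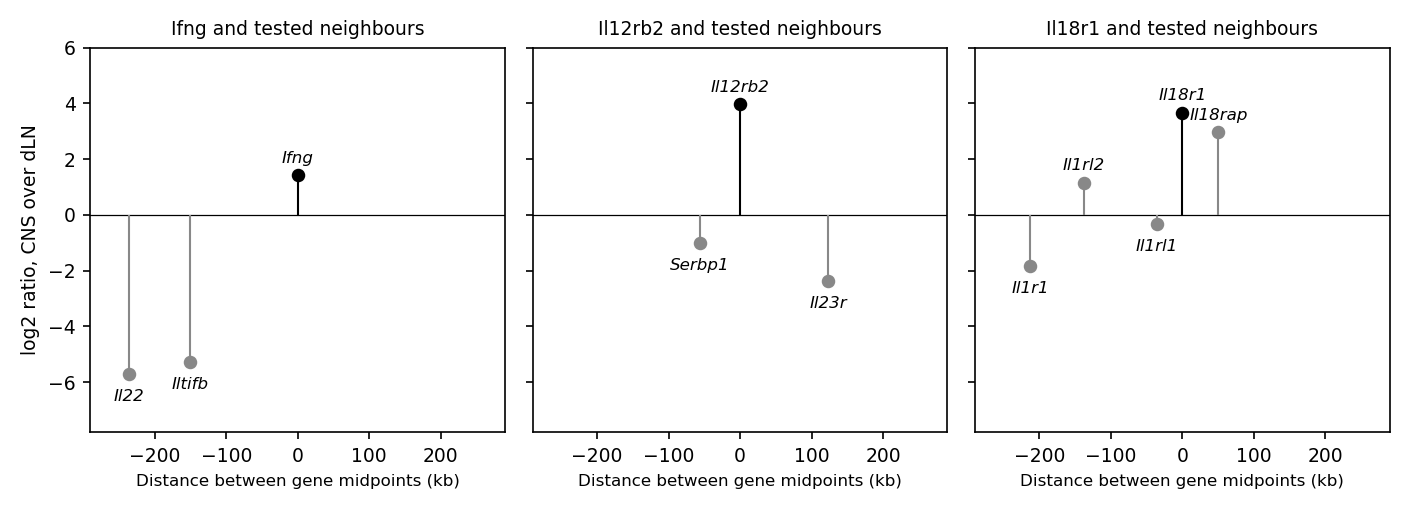
Log2 ratio of FPKM + 1, CNS over dLN, of Ifng, Il12rb2 and Il18r1 (black) and of every tested gene within 250 kb of each (grey), against the distance between gene midpoints in kb. Il12rb2 (3.98) stands beside Il23r (-2.38), and Ifng (1.43) beside Il22 (-5.71) and Iltifb (-5.28).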

How the data were processed

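RNA of effector CD4 cells was sequenced in 4 libraries, 2 from CNS and 2 from dLN, with TruSeq kits on an Illumina HiSeq2500. After trimming and mapping, the authors deposited FPKM values for 33819 RefSeq transcripts (mm10), with a separate table for each tissue. The aligner and the program that computed FPKM are not given in the sources used here. The CNS table holds both library names in a single header cell, and the order of the names was taken as that of the columns.

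Here, FPKM was summed by gene symbol (23990 symbols), leaving out 565 transcripts without one. The 10634 genes that averaged 1 FPKM or more in CNS or in dLN were tested on log2(FPKM + 1) with limma 3.58.1 (lmFit, eBayes with trend) in R 4.3.3, fitting tissue alone, and called at a Benjamini-Hochberg adjusted p under 0.05. Fragments per gene were estimated from the step size of low FPKM values, of which 90.8% to 93.0% fell within 0.05 of a whole fragment. In simulated libraries this estimate erred by at most 0.569%. In a simulated table of 10634 genes, limma called 182 of 200 genes changed by 2 on the log2 scale and 15 unchanged genes. In the data 74.9% of genes were called, a far larger share than was changed in the simulation, so these counts do not give the error rates of the calls reported here. Summaries were made in Python 3.11.15 (pandas 2.3.3, numpy 2.4.6) and plots in matplotlib 3.10.9.

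The members and gene lists were chosen with earlier results of these data known. The text names all members and up to 4 called genes of largest change per list. It also names genes singled out after their values were seen (Ifngr2, Irf8, Ciita, Runx1, Runx2, Cbfb, Gata3, Bcl6, Foxp3, Fos, Junb, Cd69, Tyk2, the neighbours and the ratios with Il23r, Il1r1, Il22 and Runx1). Some genes of the lists are counted but not reported here by name. Where nothing says that libraries came from separate mice, p-values measure only the spread between these libraries. Alternatives covered the pseudocount, scaling, transcript choice, filter, replicate block, trend, a minimum fold and each library left out.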

Additional observations from a re-analysis of the deposited data

How the results depend on the processing

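Of 127 refits of single members, 119 changed neither direction nor call. The filter, replicate block and trend settings left each fitted log2 ratio as it was, so they could change a call but not a direction. The same held for the highest transcript in members with a single transcript. Il12rb1 turned to -0.0083 and Stat4 to -0.036 with the same sum of FPKM per library, a scaling that shifted the median log2 ratio of all genes by -0.18, and neither was called there. With each library left out in turn, Ifng lay between 0.81 and 2.04 and Il12rb1 between -0.043 and 0.41, the count of members called between 6 and 8, the IFNγ receptor and target genes called lower between 0 and 2, and the T-bet target and effector genes called higher between 5 and 8 and lower between 2 and 5. A tissue left with 1 library was assumed to vary like the other. Without a filter, Ifng kept its log2 ratio of 1.43 but was no longer called (limma adjusted p = 0.0986, with 16782 genes tested), and 0 IFNγ receptor and target genes were called lower. A minimum fold of 2 lowered the genes called from 7968 to 4168, since it is a stricter criterion. When each gene was read from its highest transcript, the tissues differed by 2.88 in the ratio of Eomes over Tbx21, in place of 3.13. The same sum per library moved the calls to 3409 genes higher and 4543 lower in CNS, from 4016 and 3952, and the same upper quartile, which shifted the median by 0.12, to 4468 and 3569.

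Both tissues have libraries numbered 1 and 2 in the labels. The deviations of same-numbered libraries had a correlation of 0.0933 across genes, so the numbers were treated as names and not as pairs. With the replicate block, 7828 genes and 7 members were called, and no member changed its call. Eomes and Hlx were not tested at a minimum of 5 FPKM, nor Hlx without CNS replicate 2.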
